A study of Mus musculus with 47 samples.

Results

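The genes described here encode S100 proteins, small calcium sensors with EF-hand loops, and annexins, which bind acidic membrane lipids when calcium is present. They were picked by symbol as S100a1, S100a6, S100a10, S100a11, S100a13, S100a16, S100b, Anxa2, Anxa3 and Anxa5. Of the 10 symbols, 9 were among the 14221 genes of the count table, and S100a11, which was not among them, has no expression values here and enters only by its position and promoter. Each of the 9 passed the filter on low counts, which removed 0 genes. The table itself holds few low values on Day 5, with 3 zeros in the 23 libraries of that day and 2999 in the other 24, and every gene has at least 10 counts in 17 or more Day 5 libraries. A gene without an entry may thus have been low on Day 5 or missing for another reason, which cannot be told apart, and shares of all genes refer to the 14221 genes present.

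S100 proteins mostly work as dimers that expose a binding surface for partner proteins when calcium is bound. S100A10 has lost calcium binding and instead pairs with annexin A2 in a complex at the inner face of the plasma membrane, which brings channels and receptors to the cell surface and holds plasminogen and its activators on the outer side. In brain, S100b is a long-used marker of astrocytes that is also made by cells of the oligodendrocyte lineage, and S100a6, S100a10 and Anxa2 are known from reactive astrocytes, vessels and meninges.

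The samples were hypothalami of male Lep^ob/ob mice (strain ob/ob, age 11 weeks by the labels), which lack functional leptin and become obese and hyperglycemic. Each mouse received a single icv injection (into a cerebral ventricle) of FGF1 at 3 µg or of vehicle, was killed 1, 5 or 42 days later, and gave 1 mRNA library, 47 in all. On Day 1 there were 10 FGF1-treated and 4 vehicle-treated mice. Day 5 had 9 FGF1-treated mice, 7 vehicle-treated mice labelled non-diabetic and 7 labelled diabetic. Day 42 had 5 mice per treatment. The vehicle-treated mice of Days 1 and 42 also carry the non-diabetic label. The labels of the FGF1-treated mice give no diabetic status. By the methods, mice not considered diabetic were excluded, so the meaning of the non-diabetic label is not known. On Days 1 and 42 a difference in diabetic status and the treatment cannot be told apart. All vehicle-treated mice are described as pair-fed to the FGF1-treated mice, by the methods for 5 days. Leptin was missing in every group. Different mice were used on each day, and each day had its own library preparation code, so day and preparation cannot be told apart.

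Total counts per library ran from 1243280 to 47082403 on Day 1, from 7579695 to 30009258 on Day 5 and from 19416026 to 43934003 on Day 42. The smallest library, replicate 1 of the FGF1-treated mice of Day 1, had 539 genes at 0 counts. This library and replicates 8 and 9 of the FGF1-treated mice of Day 5 were those of unusual depth. The latter had 30009258 and 27922117 counts, beside a group median of 9411647. The vehicle-treated mice of Day 5 had at most 12451642 counts, so the deepest libraries of that day were all FGF1-treated. The lowest counts of any member in the FGF1 group of Day 1 were 27 for Anxa3 and 38 for S100a13. The labelled tissue was checked with 13 hypothalamic marker genes, all of which were in the table and above 0 in every library. Their summed level had a median of 1330.0 CPM (counts scaled to a common library size with TMM factors) in FGF1-treated mice of Day 1, where it ran from 982 to 1436. In the vehicle-treated mice of Day 1 it was 1815, 1792, 1479 and 1375, and Pmch made up 39.1% of the sum over all libraries. Of 10 pituitary markers, Gh, Prl and 5 others were not among the genes analysed, and the 3 that were summed to between 13.2 and 26.6 CPM in the FGF1 group of Day 1.

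Levels can be compared between genes only per length, so CPM was divided by the length in kilobases of all annotated exons of a gene. In vehicle-treated mice of Day 1 (mean ± SD, n = 4), S100b stood highest at 132 ± 5.40 CPM per kilobase, followed by S100a1 at 61.6 ± 4.80 and Anxa5 at 55.8 ± 4.23. S100a16 (22.95 ± 3.17), S100a13 (20.4 ± 1.56) and S100a10 (18.6 ± 1.09) came next in CPM per kilobase. S100a6 (13.9 ± 1.51), Anxa2 (7.70 ± 1.43) and Anxa3 (5.71 ± 1.92) were lowest on the same scale. The means of S100a1 and Anxa5 lay apart by less than their SDs added together, as did those of S100a16 and S100a13, of S100a13 and S100a10, and of Anxa2 and Anxa3. In FGF1-treated mice of Day 1 (n = 10) the order of these per-length levels was different, with S100a6 first at 120.0 ± 25.7, then S100a16 at 107 ± 18.02 and S100a10 at 103 ± 13.3. Anxa5 (97.3 ± 10.6), S100b (91.7 ± 8.04), S100a1 (86.3 ± 8.91), Anxa2 (71.0 ± 9.11) and S100a13 (55.4 ± 8.30) followed in CPM per kilobase, each apart from its neighbour by less than their SDs added together. Anxa3 was last at 6.62 ± 1.79 CPM per kilobase, apart from all the others.

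On Day 1 most S100 and annexin genes stood at a higher level after FGF1 than after vehicle, and S100b at a lower one. A gene was called a differentially expressed gene (DEG) at an adjusted p under 0.05 and an absolute log2 FC above 0.5. By that rule 7 of the 9 members were DEGs, beside 19.5% of all genes tested. Of these, 6 were higher, beside 11.5% of all genes, and 1 was lower, beside 8.05%. The members, and the gene lists read below, were chosen with earlier results of these data known. Such counts beside the share of all genes are thus a description and no test of the families. The median log2 FC was 1.46 over the members and 0.01 over all genes. In 7 members the lowest FGF1-treated mouse exceeded the highest vehicle-treated one, beside 7.56% of all genes, and in 1 member the groups were apart in the other direction, beside 6.81%. In whole tissue, fewer cells of a type and less RNA per cell cannot be told apart, and the same holds for more cells and more RNA per cell. Summed over the members, the level was 1160 ± 116 CPM in FGF1-treated and 480.1 ± 21.3 CPM in vehicle-treated mice (mean ± SD, n = 10 and 4).

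**Figure D1:**
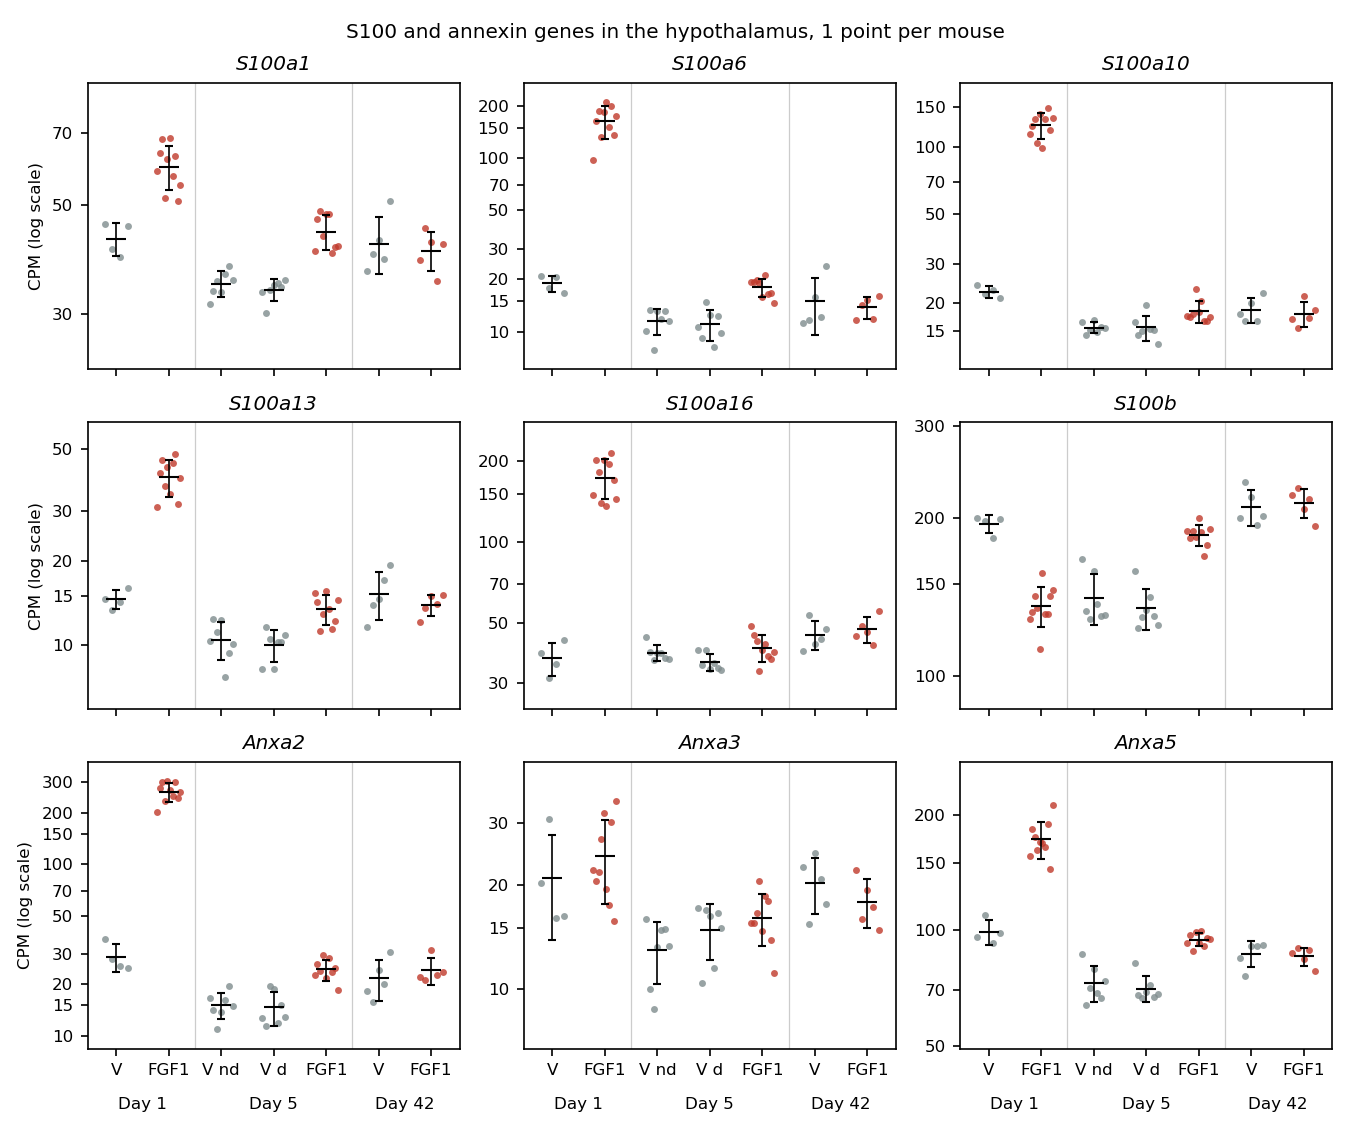
CPM on a log scale for each of the 9 genes, with 1 point per mouse, bars for mean and SD, FGF1-treated mice in red and vehicle-treated mice in grey (V, vehicle; nd, labelled non-diabetic; d, labelled diabetic). On Day 1 the FGF1-treated mice lie between 200.5 and 305 CPM for Anxa2 and the vehicle-treated mice between 24.9 and 36.5.

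Anxa2, the membrane-bound partner of S100A10, had the largest log2 FC of the members. Its level was 36.5, 28.0, 25.5 and 24.9 CPM in the vehicle-treated mice of Day 1, and the lowest, median and highest FGF1-treated mouse had 200.5, 267 and 305 CPM. All 10 FGF1-treated mice were thus high and all 4 vehicle-treated mice low, with a wide gap between them. The log2 FC was 3.21 (SE 0.16), 9.25-fold, at rank 31 of 14221 from the highest (edgeR, Benjamini-Hochberg adjusted p = 3.11e-21, higher in 10 of 10 mice). The two-sided exact permutation test on log2 CPM gave p = 0.000999, the smallest that 10 mice against 4 can give.

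S100a10, the light chain of the same complex, had 24.2, 21.96, 22.9 and 21.1 CPM in the vehicle-treated mice and 99.0, 128 and 149 CPM in the lowest, median and highest FGF1-treated mouse of Day 1. The vehicle-treated mice lay close together and far below every FGF1-treated mouse. The log2 FC of 2.47 (SE 0.10) put S100a10 at rank 80 of 14221. The level of Anxa2 per kilobase divided by that of S100a10 was taken in each mouse. It had a median of 0.687 in FGF1-treated mice of Day 1 (0.571 to 0.884) and of 0.399 in vehicle-treated mice (0.363 to 0.49), so the groups did not overlap in this ratio either.

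S100a6, which binds annexins and cytoskeletal proteins in dividing and reactive cells, had 20.8, 17.8, 20.6 and 16.7 CPM in the vehicle-treated mice of Day 1. In the FGF1-treated mice the lowest, median and highest values were 97.8, 169 and 211 CPM. Every FGF1-treated mouse was above every vehicle-treated mouse, and the spread among the FGF1-treated mice was the widest of the S100 members (SD 35.1 CPM). The log2 FC was 3.12 (SE 0.18) at rank 34 (edgeR, Benjamini-Hochberg adjusted p = 3.72e-19, higher in 10 of 10 mice).

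S100a16, a widely expressed S100 protein found in astrocytes, had 38.7, 31.2, 35.2 and 43.3 CPM in the vehicle-treated mice, and 136, 175 and 214 CPM in the lowest, median and highest FGF1-treated mouse. The groups were again fully apart. It had a log2 FC of 2.23 (SE 0.11) at rank 114 (edgeR, Benjamini-Hochberg adjusted p = 3.78e-21, higher in 10 of 10 mice). S100a13 takes part in the non-classical export of FGF1 from cells. It had 14.6, 13.3, 14.3 and 16.03 CPM in the vehicle-treated mice and 31.0, 40.2 and 48.0 CPM in the lowest, median and highest FGF1-treated mouse. No FGF1-treated mouse came down to the vehicle range, and the log2 FC was 1.46 (SE 0.12) at rank 275 (edgeR, Benjamini-Hochberg adjusted p = 4.2e-14).

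S100a1, best known as a regulator of calcium handling in muscle and also made by neurons and glia, had 45.9, 40.7, 39.1 and 45.3 CPM in the vehicle-treated mice of Day 1. Its lowest, median and highest values in FGF1-treated mice were 51.0, 60.4 and 68.4 CPM. All FGF1-treated mice were higher than all vehicle-treated mice, but by a small margin. The log2 FC of 0.49 (SE 0.08) stayed just under the fold threshold, although the test itself was passed (edgeR, Benjamini-Hochberg adjusted p = 1.28e-06, higher in 10 of 10 mice). Leaving out vehicle replicate 1 or 4 of Day 1 brought the log2 FC to 0.52 and made S100a1 a DEG, with 8 members in all.

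S100b had 201, 198, 183.5 and 199.6 CPM in the vehicle-treated mice of Day 1 and 113, 134 and 157 CPM in the lowest, median and highest FGF1-treated mouse. It was the member whose FGF1-treated mice were all below the vehicle-treated mice. It had a log2 FC of −0.52 (SE 0.07; edgeR, Benjamini-Hochberg adjusted p = 1.33e-08, lower in 10 of 10 mice). The two-sided exact permutation p of S100b was 0.000999, again the smallest possible.

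Anxa5, which binds phosphatidylserine and takes part in membrane repair, had 96.1, 109.9, 92.5 and 98.4 CPM in the vehicle-treated mice of Day 1. The lowest, median and highest FGF1-treated mouse had 145, 169.7 and 212 CPM. High and low mice were separated by treatment without exception, at a log2 FC of 0.81 (SE 0.07; edgeR, Benjamini-Hochberg adjusted p = 1.63e-12). Anxa3, an annexin of phagocytes and vessels, had 20.2, 30.9, 15.99 and 16.2 CPM in the vehicle-treated mice and 15.7, 21.8 and 34.7 CPM in the lowest, median and highest FGF1-treated mouse. Here the groups overlapped, with 2 FGF1-treated mice above all vehicle-treated mice and 1 below them. Its log2 FC of 0.22 (SE 0.18) did not pass (edgeR, Benjamini-Hochberg adjusted p = 0.314), and the two-sided exact permutation p was 0.361. Without vehicle replicate 2, the highest of its group, the log2 FC of Anxa3 was 0.48, still under the fold threshold (edgeR, Benjamini-Hochberg adjusted p = 0.0432; range over the alternatives 0.0432 to 0.664), and without vehicle replicate 3 or 4 it was 0.11 or 0.12.

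**Figure D2:**
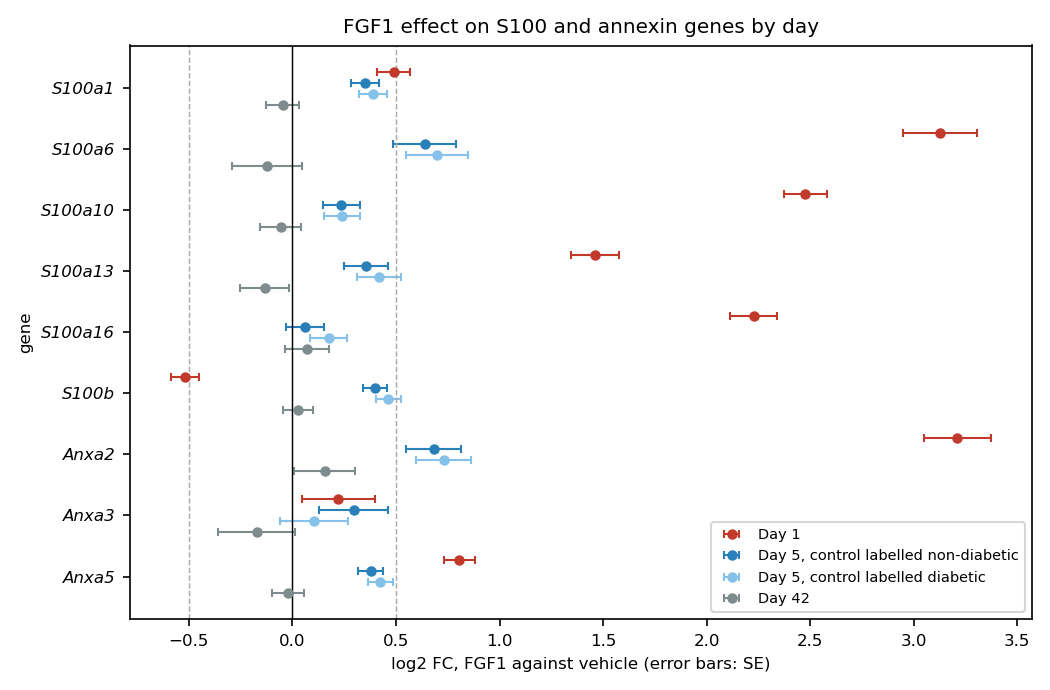
log2 FC of FGF1-treated against vehicle-treated mice for each gene and day, with SE as error bars and dashed lines at the fold threshold of 0.5 in both directions. The Day 1 points run from −0.52 (S100b) to 3.21 (Anxa2), and the Day 42 points from −0.17 (Anxa3) to 0.15 (Anxa2).

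On Day 5 the levels of the members were closer between treatments, and S100a6 and Anxa2 were the members that still passed both thresholds. Both vehicle groups were compared with the same 9 FGF1-treated mice, so the results are given side by side. Against the vehicle-treated mice labelled non-diabetic, 2 of 9 members were DEGs, both higher, beside 1.54% of all genes. Against those labelled diabetic, 2 of 9 were DEGs, both higher, beside 2.85% of all genes. All 9 members had a positive log2 FC in either comparison, with a median of 0.36 and 0.42, beside −0.01 and −0.01 over all genes. Without the fold threshold 6 of 9 members passed in each, beside 4.65% of all genes with the non-diabetic control and 9.21% with the diabetic control. S100a13, 1 of these 6, was lost with limma-voom under either control and without libraries of unusual depth under the non-diabetic one, and S100a6 with limma-voom under the non-diabetic one. The FGF1-treated mice were wholly above the vehicle-treated mice in 4 members with the non-diabetic control, beside 2.38% of all genes, and in 3 members with the diabetic control, beside 3.63%.

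Anxa2 on Day 5 ran from 18.4 over a median of 23.8 to 29.7 CPM in the FGF1-treated mice. In the vehicle-treated mice the lowest, median and highest values were 10.9, 14.9 and 19.4 CPM with the non-diabetic label and 11.4, 12.9 and 19.6 CPM with the diabetic label. Of the 9 FGF1-treated mice, 8 were above all mice of either vehicle group and 1 fell inside their range. The log2 FC was 0.68 (SE 0.13) against the non-diabetic control (edgeR, Benjamini-Hochberg adjusted p = 0.000556) and 0.73 (SE 0.13) against the diabetic control (adjusted p = 0.000128 by the same tool). The two-sided exact permutation p against the non-diabetic control was 0.000175, with 8.74e-05 the smallest possible.

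S100a6 on Day 5 had 14.7, 19.0 and 21.2 CPM in the lowest, median and highest FGF1-treated mouse. The same 3 values were 7.87, 11.8 and 13.4 CPM in the non-diabetic control and 8.13, 10.7 and 14.75 CPM in the diabetic control. The FGF1-treated mice were all above the non-diabetic control, and 8 of 9 were above the whole diabetic control. The log2 FC was 0.64 (SE 0.15; edgeR, Benjamini-Hochberg adjusted p = 0.00584) and 0.70 (SE 0.15; adjusted p = 0.00132) against the 2 controls. With quantile normalization and limma-voom, S100a6 was not a DEG against the non-diabetic control, which left 1 member (log2 FC 0.65, Benjamini-Hochberg adjusted p = 0.0602; range over the alternatives 0.000121 to 0.0602).

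S100b, lower after FGF1 on Day 1, was on the high side on Day 5. Its lowest, median and highest level was 169.8, 188 and 200.1 CPM in FGF1-treated mice, 129, 133.5 and 168 CPM in the non-diabetic control and 124, 131 and 159 CPM in the diabetic control. All 9 FGF1-treated mice exceeded all 14 vehicle-treated mice. The log2 FC of 0.40 and 0.46 stayed under the fold threshold while the test was passed (edgeR, Benjamini-Hochberg adjusted p = 6.76e-06 and 2.28e-07).

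Anxa5 and S100a1 had the same arrangement on Day 5, with all 9 FGF1-treated mice above both controls and a log2 FC under the fold threshold. For Anxa5 it was 0.38 and 0.42 against the 2 controls, with levels of 88.5 to 99.9 CPM in FGF1-treated and 63.9 to 87.0 CPM in non-diabetic control mice. For S100a1 it was 0.35 and 0.39, with 40.0 to 48.6 CPM in FGF1-treated and 31.5 to 37.7 CPM in non-diabetic control mice. S100a13 had a log2 FC of 0.36 and 0.42 with overlapping groups, and passed the adjusted test but not the fold threshold. Its adjusted p by edgeR, Benjamini-Hochberg, was 0.0413 and 0.00722 (range over the alternatives 0.00181 to 0.216 and 0.00108 to 0.0736). S100a10 had a log2 FC of 0.24 against each control and did not pass in either (edgeR, Benjamini-Hochberg adjusted p = 0.125 and 0.0759; range over the alternatives 0.0233 to 0.45 and 0.0128 to 0.26). The adjusted test of S100a10 was passed, still under the fold threshold, with the libraries of Day 5 alone (either control) and with both vehicle groups merged. S100a16, which was among the strongest on Day 1, had 40.6 ± 4.65 CPM after FGF1 and 38.8 ± 2.75 CPM in the non-diabetic control on Day 5 (mean ± SD, n = 9 and 7). Its log2 FC was 0.06 and 0.17, and that of Anxa3 was 0.30 and 0.10, and neither gene passed, except that S100a16 passed the adjusted test alone, at 0.17 against the diabetic control, with the libraries of Day 5 only.

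Between the 2 vehicle groups of Day 5 no member passed the test. edgeR, DESeq2 and limma-voom each called 0 of 9 members between the diabetic and the non-diabetic label, and 0 of 9 had an unadjusted p under 0.05, beside 0% of all genes called. Their log2 FC ran from −0.11 for S100a16 to 0.19 for Anxa3, with a median of −0.05 beside 0.00 over all genes. Over all genes, 193 had an unadjusted p under 0.05 between these groups.

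On Day 42 no member passed the test between treatments, and in each of them the groups overlapped. edgeR, DESeq2 and limma-voom each called 0 of 9 members, and 0 of 9 had an unadjusted p under 0.05, beside 0% of all genes called. The median log2 FC was −0.05 over the members and −0.01 over all genes, of which 776 had an unadjusted p under 0.05. Over all genes 31 DEGs were called without FGF1 replicate 1 and 1 without FGF1 replicate 2, while the members called were 0 without any 1 mouse. In 0 of 9 members were the FGF1-treated mice wholly above the vehicle-treated mice, beside 0.0914% of all genes. The two-sided exact permutation p of the members lay between 0.302 and 0.817, with 0.00794 the smallest that 5 mice against 5 can give.

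Anxa2 on Day 42 had 22.1, 21.1, 31.8, 22.5 and 23.5 CPM in FGF1-treated and 18.3, 15.8, 24.1, 19.9 and 30.7 CPM in vehicle-treated mice. S100a6 had 11.7, 14.3, 15.2, 11.8 and 16.1 CPM in FGF1-treated and 11.2, 11.6, 15.9, 12.1 and 24.0 CPM in vehicle-treated mice. In both genes the groups overlapped, and the highest vehicle-treated mouse was replicate 5, which was the highest of its group in 6 of the 9 members. S100b had 221, 229, 209, 218 and 193 CPM in FGF1-treated and 200.3, 235, 219, 195 and 202 CPM in vehicle-treated mice, again with overlap. The log2 FC was −0.12 for S100a6, −0.06 for S100a10 and −0.05 for S100a1, and became 0.11, 0.01 and 0.03 without vehicle replicate 5. For Anxa2 it was 0.15, and ran from 0.03 without FGF1 replicate 3 to 0.31 without vehicle replicate 5. Anxa5 had a log2 FC of −0.02, which became 0.01 without FGF1 replicate 5. That of Anxa3 was −0.17 and ran from −0.26 to −0.09 over the alternatives.

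Since the FGF1 effect passed the test on one day and not on another, the difference between days was tested directly as an interaction. For Day 5 the non-diabetic control was used, and the diabetic one entered only where both vehicle groups were merged. Between Day 1 and Day 5, 6 of 9 members differed in their FGF1 effect past both thresholds, beside 15.8% of all genes. The effect was smaller on Day 5 in Anxa2 (difference in log2 FC of −2.53), S100a6 (−2.49), S100a16 (−2.17) and S100a13 (−1.11), and in S100a10. For S100b it went the other way, from a lower to a higher level, by 0.92. Anxa5 had a difference of −0.43, S100a1 of −0.14 and Anxa3 of 0.07, all under the fold threshold. Between Day 1 and Day 42, 8 of 9 members differed in their FGF1 effect, beside 16.4% of all genes, with 7 smaller effects on Day 42 and S100b higher by 0.55. Anxa3 had a difference of −0.40 there and did not pass. Over 21 alternatives it ran from −0.64 to −0.27 and passed the adjusted test in none. S100a1 passed there at −0.54, but lay under the fold threshold (−0.46 to −0.50) in 6 alternatives. These were DESeq2, its size factors in edgeR, limma-voom, and edgeR without FGF1 replicate 4 of Day 42, vehicle replicate 5 of Day 42 or vehicle replicate 3 of Day 1, with 7 members each.

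Between Day 5 and Day 42 the interaction gave 0 of 9 members past both thresholds by edgeR, DESeq2 and limma-voom, beside 0.717% of all genes called. At an unadjusted p under 0.05 there were 7 of 9 members, beside 9.98% of all genes. The median difference in log2 FC was −0.40 over the members and −0.01 over all genes. Anxa5 at −0.40 and S100b at −0.37 passed the adjusted test but not the fold threshold (edgeR, Benjamini-Hochberg adjusted p = 0.0289 and 0.0353; range over the alternatives 0.00623 to 0.0847 and 0.00668 to 0.112). Both lost that test without libraries of unusual depth and without FGF1 replicate 5 of Day 42, vehicle replicate 3 of Day 42 or non-diabetic vehicle replicate 2 of Day 5. Anxa5 lost it without vehicle replicate 4 of Day 42, and S100b without vehicle replicate 2 of Day 42 or with DESeq2 size factors. S100a1 at −0.40 did not pass the adjusted test, and did in 6 alternatives (edgeR, Benjamini-Hochberg adjusted p = 0.0528; range 0.0142 to 0.125), which were at least 10 counts, merged vehicle groups, and without FGF1 replicate 2 or 3 or vehicle replicate 1 or 4 of Day 42. S100a6 at −0.76 and Anxa2 at −0.53 were past the fold threshold and not the adjusted test. With both vehicle groups of Day 5 merged, S100a6 at −0.79 passed both.

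The members were also compared with each other across the 47 libraries, by the Pearson correlation of log2 CPM, as a description with no test. After the mean of each of the 7 groups was subtracted, so that treatment and day no longer counted, the 36 pairs had a median r of 0.234, from −0.212 for S100a13 with Anxa3 to 0.776 for S100a6 with Anxa2. S100a10 with Anxa2 had 0.612, S100a1 with S100a6 had 0.548 and Anxa3 with Anxa5 had 0.513. These were the 4 pairs above 0.5. With the mean of each day subtracted instead, which keeps treatment in, S100a6 with Anxa2 had an r of 0.978 and S100a10 with Anxa2 of 0.959. On that scale S100b ran against S100a16 (−0.502), S100a10 (−0.48), Anxa2 (−0.358) and S100a6 (−0.344). The libraries share a day, a treatment and a preparation in blocks, so these values are not over independent points.

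The genes most like a member were taken by the same day-centred r over 47 libraries, among all genes of the table other than the members. For Anxa2 these non-members were Vim, an intermediate filament gene (0.986), Flnc, an actin crosslinker (0.971), and Cnn3, a calponin (0.962). Their log2 FC on Day 1 was 3.31, 3.75 and 1.69, and on Day 5 against the non-diabetic control 0.87, 0.66 and 0.30. For S100a10 the nearest were Tubb6, a tubulin (0.977), S1pr3, a receptor for sphingosine-1-phosphate (0.974), and Socs3, an inhibitor of cytokine and leptin signaling (0.97). They had a log2 FC on Day 1 of 4.88, 3.38 and 4.50. For S100b they were Abhd3 (0.896), Selenop, a selenium carrier (0.894), and Enpp6, an enzyme of newly forming oligodendrocytes (0.891). Their log2 FC was −0.58, −0.70 and −1.43 on Day 1 and 0.39, 0.47 and 1.499 on Day 5. Since r keeps the treatment difference in, the choice of these genes largely sets such signs. For Anxa3 the nearest were Itih2 (0.891), Cped1 (0.872) and Mpzl2 (0.867). Their log2 FC was 0.80, 0.77 and 0.77 on Day 1, where Itih2 and Mpzl2 did not pass (edgeR, Benjamini-Hochberg adjusted p = 0.119 and 0.185). With the mean of each group subtracted instead, r with the 3 nearest genes ran from 0.872 to 0.901 for Anxa3. It ran from 0.407 to 0.83 for Anxa2, 0.412 to 0.611 for S100a10 and 0.495 to 0.591 for S100b.

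Among relatives of the members, 0 of 10 other S100 genes looked for were among the genes of the table, and these include S100a4, S100a8 and S100a9. Of 9 other annexins 7 were in the table, and on Day 1 4 of them rose and 3 did not pass, beside 11.5% of all genes that were higher, with a median log2 FC of 0.65 beside 0.01 over all genes. Anxa7, which has the largest total count of the 7 and takes part in membrane fusion, was at 168 ± 13.4 CPM in FGF1-treated and 107 ± 4.58 CPM in vehicle-treated mice, with all 10 FGF1-treated mice above (log2 FC 0.65, SE 0.05; edgeR, Benjamini-Hochberg adjusted p = 1.03e-14). Anxa1, known from the resolution of inflammation, was at 19.7 ± 5.06 and 10.6 ± 3.71 CPM (log2 FC 0.92). Anxa8 and Anxa4 also rose, by a log2 FC of 0.82 and 0.72. On Day 5 edgeR, DESeq2 and limma-voom each called 0 of the 7 against the non-diabetic control, with 1 at an unadjusted p under 0.05, and 0 against the diabetic control, also with 1. Of all genes, 1.54% and 2.85% were called with these controls, and 16.5% and 21.8% were at an unadjusted p under 0.05. On Day 42 the same tools each called 0 of 7, with 0 at an unadjusted p under 0.05, beside 5.46% of all genes.

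Of 18 partners and receptors of S100 proteins and annexin A2, 15 were in the table, and 9 of them rose on Day 1 while 0 fell, beside 11.5% and 8.05% of all genes, with a median log2 FC of 0.91. DESeq2 called 9 and limma-voom 8. Plau, the urokinase-type plasminogen activator, ran from 0.903 to 1.51 CPM in vehicle-treated mice and from 3.26 over a median of 18.6 to 43.8 CPM in FGF1-treated mice. The groups did not overlap, and the FGF1-treated mice were spread over a wide range (log2 FC 4.18, SE 0.45; edgeR, Benjamini-Hochberg adjusted p = 1.48e-10). Plat, the tissue-type activator that the S100A10 and annexin A2 complex can bind, was at 216.5 ± 40.3 CPM in FGF1-treated and 80.8 ± 7.94 CPM in vehicle-treated mice (log2 FC 1.43). Tlr4, a receptor reported for several S100 proteins, was at 3.01 ± 0.897 and 0.986 ± 0.176 CPM (log2 FC 1.66).

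On Day 5, 2 of the 15 partners and receptors rose against the non-diabetic control, again Plat (log2 FC 0.62) and Tlr4 (0.57), and 1 against the diabetic control, Tlr4 (0.61), beside 1.54% and 2.85% of all genes called. DESeq2 called 2 and 1, and limma-voom 1 and 0. Plat was then at 80.9 ± 7.09 CPM in FGF1-treated and 52.5 ± 4.94 CPM in non-diabetic control mice. On Day 42 edgeR, DESeq2 and limma-voom each called 0 of the 15, with 0 at an unadjusted p under 0.05, beside 5.46% of all genes. Plau was then between 1.19 and 1.89 CPM in FGF1-treated mice and between 0.949 and 1.78 CPM in vehicle-treated mice.

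Other calcium-binding families, also listed with earlier results of these data known, were looked at for comparison. Of 42 other EF-hand genes 39 were in the table, and on Day 1 5 rose, 2 fell and 32 did not pass, with a median log2 FC of −0.13 beside 0.01 over all genes. That number of calls is near the background, at which 11.5% of all genes were higher and 8.05% lower. Efhd2, an actin-binding EF-hand protein, had the largest log2 FC of these (1.16), followed by Kcnip3, a channel-interacting calcium sensor (1.01), and Rcn3, a calcium-binding protein of the endoplasmic reticulum (0.86). On Day 5 Rcn3 was the 1 of 39 that passed by edgeR, with a log2 FC of 0.94 against the non-diabetic and 0.88 against the diabetic control, while limma-voom called 0. That count is near the background, at which 1.54% and 2.85% of all genes were called with these controls. On Day 42 edgeR, DESeq2 and limma-voom called 0 of 39, with 6 at an unadjusted p under 0.05, beside 5.46% of all genes. Of 9 copines, which bind membranes in a calcium-dependent way like annexins, 8 were in the table and 2 rose on Day 1, Cpne2 (0.60) and Cpne8 (0.55), with a median of −0.01, while limma-voom called 1. On Day 5 edgeR, DESeq2 and limma-voom called 0 of the 8 against either control, each with 2 at an unadjusted p under 0.05. Of all genes, 16.5% were at such a p with the non-diabetic and 21.8% with the diabetic control. On Day 42 the copines called were also 0, with 1 at an unadjusted p under 0.05, beside 5.46% of all genes.

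Markers of cell types in or near the hypothalamus were read beside these results, since bulk levels mix all cells, and beside 11.5% of all genes higher and 8.05% lower on Day 1. On Day 5 the share of all genes called was 1.54% with the non-diabetic and 2.85% with the diabetic control. Astrocyte markers did not move as 1 group on Day 1, when 2 of 10 rose, 3 fell and 5 did not pass. Gfap, the filament of reactive astrocytes, was at 1787 ± 231.5 CPM in FGF1-treated and 255.5 ± 25.7 CPM in vehicle-treated mice. Gjb6 (log2 FC −1.46) and Agt (−1.33) were lower. The astrocyte sum was 4908, 5343, 4664 and 5002 CPM in the vehicle-treated mice and 4958, 5379 and 6028 CPM in the lowest, median and highest FGF1-treated mouse, which overlap. Gfap alone gave much of this, and without it (a sum formed after the values were seen) the other 9 markers came to 3222, 3622 and 3871 CPM in the lowest, median and highest FGF1-treated mouse, all below the 4437 to 5057 CPM of the vehicle-treated mice. Over all libraries the most abundant gene was Slc1a2, and none of the 10 was at 0 in any library. On Day 5 Gfap (1.29) and Aqp4 (0.98) were the 2 astrocyte markers that rose against the non-diabetic control, 0 fell, and all 10 had a positive log2 FC. Against the diabetic control 2 rose and 0 fell, and 8 of 10 had a positive log2 FC, with the lowest at −0.066. The astrocyte sum was then 5597, 5851 and 6116 CPM in the lowest, median and highest FGF1-treated mouse, 4956, 5047 and 5153 CPM in the non-diabetic control and 4846, 4951 and 5382 CPM in the diabetic control. On Day 5 this sum was higher in all FGF1-treated mice than in all vehicle-treated mice, and without Gfap it was so too (5188 to 5691 CPM, against 4721 to 4980.0 and 4624 to 5110.0 CPM). On Day 1 the full astrocyte sum had a higher mean after FGF1, at 5372 against 4979 CPM, while S100b was lower. Only the sum without Gfap, formed after the values were seen, lay on the same side as S100b on both Days 1 and 5. The part of astrocyte markers in the results for S100b, Anxa2, S100a10 and S100a6 was not tested.

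Markers of microglia rose in 7 of 10 genes and fell in 1 on Day 1, while DESeq2 called 6 and limma-voom 7 in all. Their sum was 266, 268.5, 242 and 283 CPM in the vehicle-treated mice and 286, 354 and 396 CPM in the lowest, median and highest FGF1-treated mouse, with no marker at 0. Markers of infiltrating or border myeloid cells rose in 6 of 7 genes by edgeR, with 4 called by DESeq2 and 3 by limma-voom (Ly6c2, Itgax and Ms4a7 were not among the genes used). Over all libraries Lyz2 was the most abundant of them, and Cd163 and Ccr2 had values of 0 in some libraries. In the FGF1 group of Day 1 Lgals3 was higher, at a mean of 25.4 CPM beside 16.4 CPM for Lyz2. The myeloid sum of Day 1 was 23.6, 35.6, 20.5 and 23.4 CPM in the vehicle-treated mice and 35.9, 67.3 and 101 CPM in the FGF1-treated mice. So both sums were higher in all 10 FGF1-treated mice than in all 4 vehicle-treated mice, each by a narrow margin. The lowest FGF1-treated and the highest vehicle-treated mouse had 286.0 and 282.7 CPM in the microglial sum. In the myeloid sum they had 35.92 and 35.63 CPM. Lgals3, a lectin of phagocytes on the myeloid list, had a log2 FC of 3.59, with 25.4 ± 6.53 and 2.14 ± 0.496 CPM. It ran from 17.1 to 37.0 CPM in FGF1-treated and from 1.805 to 2.88 CPM in vehicle-treated mice. Without Lgals3 the groups would thus overlap in the myeloid sum. On Day 5, 1 of 10 microglial markers rose against the non-diabetic control and 8 of 10 against the diabetic control. Of the 7 myeloid markers 2 and 3 rose against these controls. The microglial sum of Day 5 was 374, 422 and 454 CPM in the FGF1-treated mice, 289, 295.5 and 491.5 CPM in the non-diabetic control, where replicate 2 was the highest, and 264, 282 and 304.5 CPM in the diabetic control. All FGF1-treated mice were thus above the diabetic control, and they overlapped with the non-diabetic control. Without that mouse, a choice made after seeing the data, the number of members called on Day 5 was again 2. The part of these markers in the results for the members was not tested.

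Markers of oligodendrocytes fell in 8 of 10 genes on Day 1 and rose in 0, while limma-voom called 6. Mog (log2 FC −1.62) and Cldn11 (−0.87), both of the myelin sheath, were among those that fell. Their sum was 4399, 5335, 3719 and 5424 CPM in the vehicle-treated mice and 2319, 2592 and 4308 CPM in the lowest, median and highest FGF1-treated mouse, so the groups overlapped at their edges. No marker of the list was at 0 in any library. On Day 5 4 of 10 rose, among them Ugt8a (0.76) and Cldn11 (0.61), and 0 fell. The sum of Day 5 was then 6433, 7114 and 7383 CPM in FGF1-treated mice, 4716, 4943 and 6228 CPM in the non-diabetic control and 4258, 4760.0 and 6368 CPM in the diabetic control, with all FGF1-treated mice above all vehicle-treated mice. On Day 42 it ran from 6229 to 8943 CPM in FGF1-treated and from 6468 to 8477 CPM in vehicle-treated mice. S100b, which oligodendrocytes also make, thus had a log2 FC of the same sign as these markers on Days 1 and 5, and their part in the result for S100b was not tested.

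Precursor markers of the oligodendrocyte lineage were read for the same days, and most of them did not pass on either. On Day 1 Neu4 (−1.24) and Gpr17 (−1.07) fell, 2 of 10, and 0 rose. Their sum was 398, 474, 405 and 454 CPM in the vehicle-treated mice and 332, 354 and 395 CPM in the lowest, median and highest FGF1-treated mouse. On Day 5 Bmp4 (1.85), Gpr17 (1.80) and Neu4 (0.77) rose against the non-diabetic control, and the sum was 670.0, 719 and 828.8 CPM in FGF1-treated and 451.5, 487 and 535 CPM in the non-diabetic control. On both days the groups did not overlap in this sum. Over all libraries Tnr was the most abundant gene, and the part of these markers in the result for S100b was not tested.

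Among the other lists, 4 of 10 meningeal fibroblast markers rose and 3 fell on Day 1. Their sum, led over all libraries by Pdgfra, which is also on the precursor list, overlapped at 133, 319.7 and 554 CPM in the lowest, median and highest FGF1-treated mouse and 234, 308, 197 and 209 CPM in the vehicle-treated mice. On Day 5, 3 of 10 meningeal markers rose against the non-diabetic control and 1 against the diabetic control, 0 fell, and limma-voom called 1 in each. All 10 had a positive log2 FC with either control, at a median of 0.79 and 0.59 beside −0.01 and −0.01 over all genes. The meningeal sum of Day 5 was 184, 319.1 and 482 CPM in the lowest, median and highest FGF1-treated mouse, 152, 217 and 296 CPM in the non-diabetic control and 163.5, 262 and 301 CPM in the diabetic control, with overlap. The part of these markers in the Day 5 results for S100a6 and Anxa2 was not tested. On Day 1, 1 of 9 tanycyte markers rose and 2 fell, and of 9 ependymal markers 1 rose (Tm4sf1, 2.56) and 4 fell, with Ccdc153 (−2.33) and Dynlrb2 (−1.61) the lowest. Endothelial markers rose in 3 and fell in 1 of 10, those of pericytes and smooth muscle rose in 2 and fell in 3 of 9, and those of choroid plexus fell in 1 of 6. Of the hypothalamic markers 2 of 13 rose and 2 fell, with Pomc at 1.71, and of the 3 pituitary markers 1 fell. Of 10 neuronal markers edgeR called 0, limma-voom 0 and DESeq2 2, with 3 at an unadjusted p under 0.05, beside 51.6% of all genes. Their sum, led over all libraries by Snap25, was 4538, 5461, 4451 and 4818 CPM in vehicle-treated mice and 3416, 3930.0 and 4435 CPM in the lowest, median and highest FGF1-treated mouse, without overlap. Of 4 red blood cell markers edgeR, DESeq2 and limma-voom each called 0, with 0 at an unadjusted p under 0.05. Of 10 neutrophil markers 2 were in the table, and Csf3r rose by 0.53 by edgeR while DESeq2 and limma-voom called 0. On Day 5 1 of 10 endothelial markers rose with either control and 0 fell, with 8 (non-diabetic) and 5 (diabetic) at an unadjusted p under 0.05, beside 16.5% and 21.8% of all genes. Their sum ran from 347 to 419 CPM after FGF1, 294 to 353 CPM in the non-diabetic and 319 to 377 CPM in the diabetic control. Of the neuronal markers 0 were called then, and the median sum was 2967 CPM after FGF1 and 3237 and 3268 CPM in these controls. The part of these lists in the results for the members was not tested.

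By position, 5 S100 members and S100a11 lie on chromosome 3, as does Anxa5 at a distance (GRCm38 coordinates from GENCODE, matched by name). S100a1, S100a13, S100a16 and S100a6 stand within 113 kilobases, from S100a1 (chr3:90511034-90514392) to S100a6 (chr3:90612882-90624181). S100a10 (chr3:93555080-93564643) and S100a11 form a separate pair 28.8 kilobases apart, 2.90 megabases farther on. S100b (chr10:76253853-76261159), Anxa2 (chr9:69453620-69491795) and Anxa3 (chr5:96793339-96845966) are on other chromosomes. The 5′ ends of S100a1 and S100a13 are 43 bases apart on opposite strands, while their log2 FC on Day 1 was 0.49 and 1.46. Genes around the members were read as well, and 15 other genes of the table lie within 100000 bases of a member. On Day 1 edgeR called 0 of these 15, beside 19.5% of all genes, with 9 at an unadjusted p under 0.05, beside 51.6%, while DESeq2 and limma-voom each called 1, and the median log2 FC was −0.12. On Day 5 against the non-diabetic control edgeR, DESeq2 and limma-voom each called 0 of the 15, beside 1.54% of all genes, with 1 at an unadjusted p under 0.05, beside 16.5%. Against the diabetic control they also each called 0, beside 2.85% of all genes, with 4 at an unadjusted p under 0.05, beside 21.8%. The 5 genes of the table within 100000 bases of S100a1 ran from −0.43 (Snapin) to 0.43 (Ints3), with Npr1 and Ilf2 at −0.12 and Chtop at −0.09. Anxa2 overlaps the annotated transcript Gm16144 on the other strand by 98 bases, and Anxa3 overlaps Gm42603 on the same strand by 112 bases, and neither Gm gene was among the genes used.

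Promoter windows of 300 bases (250 before to 50 after the start, RefSeq, GRCm38.p6) were read for 8 of the 10 members, which gave 9 windows, and S100a10 and Anxa3 had none. Searched on both strands were the AP-1 motif TGANTCA, the CRE motif TGACGTCA, the STAT motif TTCNNNGAA, the TEAD motif GGAATG and the SP/KLF motif GGGCGG. Of all 32851 windows of this length, 7.81% hold the AP-1 letters, 1.79% the CRE, 8.30% the STAT, 14.7% the TEAD and 35.7% the SP/KLF letters. Among the 9 member windows, 3 hold the AP-1 letters (Anxa2, S100a11 and the second S100a16 window), the same 3 hold the SP/KLF letters, and 0 hold the other motifs. The windows of Anxa2, S100a6 and S100a16 are shown because these members rose most on Day 1 among those with a window, and that of S100b because it fell. Anxa2 is at chr9:69453433-69453732, S100a6 at chr3:90612644-90612943, the first S100a16 window at chr3:90537004-90537303, the second S100a16 window at chr3:90540896-90541195 and S100b at chr10:76253586-76253885, all on the plus strand. Capitals mark the AP-1 letters (at −94 in Anxa2 and −191 in the second S100a16 window, counted from the start) and the SP/KLF letters (at −189, −47 and −23 in Anxa2 and −29 in the second S100a16 window). GC content was 63.7% in Anxa2, 49.3% in S100a6, 55.0% and 54.3% in the first and second S100a16 window and 53.7% in S100b, beside a median of 52.7% over all windows.
Anxa2: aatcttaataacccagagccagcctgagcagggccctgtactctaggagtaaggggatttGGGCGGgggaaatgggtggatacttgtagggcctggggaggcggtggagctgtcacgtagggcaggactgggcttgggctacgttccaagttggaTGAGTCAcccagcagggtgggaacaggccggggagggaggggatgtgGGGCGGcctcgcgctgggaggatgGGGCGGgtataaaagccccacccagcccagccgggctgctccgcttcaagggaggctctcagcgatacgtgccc
S100a6: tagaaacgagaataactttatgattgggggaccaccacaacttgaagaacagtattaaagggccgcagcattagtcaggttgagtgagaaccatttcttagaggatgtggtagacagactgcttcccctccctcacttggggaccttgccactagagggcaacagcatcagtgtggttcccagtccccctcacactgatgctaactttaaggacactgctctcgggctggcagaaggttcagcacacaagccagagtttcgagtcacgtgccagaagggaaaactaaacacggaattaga
S100a16 first: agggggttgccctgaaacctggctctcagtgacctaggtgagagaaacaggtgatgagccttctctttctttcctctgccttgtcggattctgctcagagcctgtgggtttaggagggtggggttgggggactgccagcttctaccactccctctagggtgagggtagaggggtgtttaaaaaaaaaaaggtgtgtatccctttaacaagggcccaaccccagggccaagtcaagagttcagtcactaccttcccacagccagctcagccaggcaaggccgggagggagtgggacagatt
S100a16 second: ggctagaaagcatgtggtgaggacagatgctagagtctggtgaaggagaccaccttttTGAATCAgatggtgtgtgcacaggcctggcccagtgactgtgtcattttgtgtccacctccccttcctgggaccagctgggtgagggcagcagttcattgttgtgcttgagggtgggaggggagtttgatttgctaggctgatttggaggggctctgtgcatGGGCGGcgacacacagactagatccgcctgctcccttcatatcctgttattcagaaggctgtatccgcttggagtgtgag
S100b: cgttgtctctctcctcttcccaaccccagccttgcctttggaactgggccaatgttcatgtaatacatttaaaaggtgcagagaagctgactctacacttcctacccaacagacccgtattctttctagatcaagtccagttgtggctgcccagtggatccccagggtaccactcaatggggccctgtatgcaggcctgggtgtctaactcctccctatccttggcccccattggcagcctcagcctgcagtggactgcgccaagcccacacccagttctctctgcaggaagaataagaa
A match is a description of letters and not a bound site, and the windows of S100a6 and S100b and the first of S100a16 hold none of the 5 motifs.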

How the data were processed

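Hypothalamic RNA of 47 mice was measured by mRNA sequencing, 1 library per mouse. Per the authors' methods, reads were aligned with STAR, and the deposited table holds raw whole-number counts per gene symbol, unnormalized. The methods state a Mus musculus reference, but the build name they give is that of a human genome. They do not name the counting program, so coordinates here come from GENCODE by gene name (14158 of 14221 genes found). Library totals ran from 1243280 to 47082403 counts, and the lowest member count of 27 sets the precision in the smallest library. Genes were filtered with filterByExpr (0 removed) and tested with edgeR 4.0.16 (TMM, quasi-likelihood F test) in R 4.3.3 over 7 groups of treatment, label and day. p-values were Benjamini-Hochberg adjusted over 14221 genes, at 0.05 with an absolute log2 FC above 0.5. Differences between days were interaction contrasts. Exact permutation tests, two-sided, used log2(CPM + 0.5). Alternatives were DESeq2 1.42.0, its size factors, quantile normalization with limma-voom (limma 3.58.1), other filters, controls and thresholds, other pseudocounts, and leaving out mice. The fit and counting were tested on simulated data. The members and lists were chosen with earlier results of these data known. The genes named were taken from all members, other S100 and annexin genes that passed within a day or had the largest total, at most 3 per other list and day with the largest absolute log2 FC among those that passed, and the 3 genes most correlated with S100a10, Anxa2, S100b and Anxa3. Neighbours by position and the most abundant gene of some marker lists are named beside these. S100a11 was left out of all expression values because the table has no entry for it.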

Additional observations from a re-analysis of the deposited data

Results flagged for a closer look

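In 4 of 63 groups of mice looked at (9 members in 7 groups) 1 mouse stood far from the others of its group. This was judged by its gap to the next mouse over the range of the group. Chance alone gives about 1 in 20 groups, here 3.15, so the number flagged is near that of chance. S100a1 was lowest in vehicle diabetic Day 5 replicate 2, at 30.1 CPM. S100a16 was highest in vehicle non-diabetic Day 5 replicate 1, at 44.5 CPM. Anxa2 was highest in FGF1 Day 42 replicate 3, at 31.8 CPM. Anxa5 was highest in vehicle diabetic Day 5 replicate 1, at 82.3 CPM.

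The FGF1 effect differed between days by the interaction test of edgeR, with Benjamini-Hochberg adjusted p over all genes. From Day 1 to Day 5 the log2 FC of S100a6 changed by −2.49 (adjusted p = 2.61e-12), that of S100a10 by −2.24 (4.09e-18), that of S100a13 by −1.11 (2.85e-07) and that of S100a16 by −2.17 (8.48e-17). Anxa2 changed by −2.53 (adjusted p = 4.76e-14 by edgeR, Benjamini-Hochberg) and S100b by 0.92 (2.8e-11) over the same days. From Day 1 to Day 42 the change was −0.54 for S100a1 (edgeR, Benjamini-Hochberg adjusted p = 0.000281), −3.25 for S100a6 (4.5e-15), −2.53 for S100a10 (3.92e-19), −1.60 for S100a13 (2.12e-10) and −2.16 for S100a16 (1.16e-15). It was 0.55 for S100b (edgeR, Benjamini-Hochberg adjusted p = 3.87e-05), −3.06 for Anxa2 (5.56e-16) and −0.83 for Anxa5 (3.34e-08). Day and library preparation changed together, so their parts in these differences cannot be told apart.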

How the results depend on the processing

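Among log2 FC of members under alternatives, 963 kept direction and side of the threshold, 15 gained and 7 lost the call, and 14 turned direction. With at least 10 counts in every library (10973 genes tested), DEGs numbered 1582 for FGF1 against vehicle on Day 1, 140 on Day 5 for the non-diabetic and 219 for the diabetic control, 1402 for the FGF1 effect on Day 5 minus Day 1 and 1525 for the FGF1 effect on Day 42 minus Day 1. Without the fold threshold they were 6396, 661, 1310, 3784 and 3623. For FGF1 against vehicle labelled non-diabetic on Day 5 the count was 370 with the libraries of the day alone, 372 with both vehicle groups merged, and 406 with the diabetic control. Members called were 6 without the fold threshold on Day 5 with either control, 1 with quantile normalization and limma-voom (non-diabetic control), and between Days 5 and 42 2 without the fold threshold and 1 with merged vehicle groups. Leaving out singly each Day 42 mouse or each vehicle-treated Day 1 mouse (the other mice were not, apart from vehicle non-diabetic Day 5 replicate 2) gave 0 to 31 DEGs on Day 42 (31 without FGF1 replicate 1) and 56 to 149 between Days 5 and 42 (56 without FGF1 Day 42 replicate 5), and 7 or 8 members on Day 1. Directions turned only for effects near 0. These leave-outs gave on Day 42 −0.09 to 0.03 for S100a1, −0.21 to 0.11 for S100a6, −0.13 to 0.01 for S100a10 and −0.07 to 0.01 for Anxa5. Anxa3 between Days 1 and 5 had −0.18 to 0.18, and −0.03 with merged vehicle groups. S100a16 between Days 5 and 42 had −0.05 to 0.08, −0.01 with at least 10 counts, −0.02 without libraries of unusual depth and −0.05 with merged vehicle groups. With quantile normalization and limma-voom, which changed scaling and test together, the share of DEGs that were higher fell from 84.9% to 67.6% (non-diabetic control) and from 82.5% to 65.8% (diabetic control). This share rose from 40.2% to 50.5% between Days 1 and 42 with DESeq2 size factors, and likewise with quantile normalization and limma-voom. With DESeq2 size factors it also went from 58.8% to 50.8% on Day 1 and from 46.1% to 52.5% between Days 1 and 5. The cause of these changes was not tested, except that fewer genes or samples were used where stated. No paired analysis was possible because the labels pair no mice across groups. Depth limits most the member values of FGF1 Day 1 replicate 1, with 1243280 counts in all.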
